A study of Mus musculus with 6 samples.

Results

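The genes described are the 8 measured genes of the NAIP-NLRC4 inflammasome axis named *Naip1*, *Naip2*, *Naip5*, *Naip6*, *Nlrc4*, *Casp1*, *Gsdmd* and *Il18*, chosen by symbol from the 32285 genes counted and kept whatever their values. RNA of single jejunal cells was captured in 6 droplet libraries from male wild-type C57BL/6J mice of about 30 weeks that had been fasted overnight. LFD sham mice (3 pooled) ate a diet with 10% of calories as fat and had a sham operation, HFD sham mice (3 pooled) ate a diet with 60% of calories as fat and had the same sham operation, and HFD VSG mice (2 pooled) ate the 60% diet and had vertical sleeve gastrectomy (VSG), which removed about 80% of the stomach. All ate their diet for 16 weeks before the operation, went back to it afterwards and were studied 5 weeks after the operation. Each group gave 1 library labelled crypts and 1 labelled villi from the same mice, so every difference between groups is a difference between single pooled libraries, with no replicate and no p-value.

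In an inflammasome, a sensor protein detects a danger in the cytosol and assembles a platform that activates caspase-1. NAIP proteins are the receptors of this axis: in mice NAIP1 binds the needle and NAIP2 the inner rod of bacterial type III secretion systems, and NAIP5 and NAIP6 bind flagellin. A ligand-bound NAIP recruits NLRC4 (*Nlrc4*), which polymerises and activates caspase-1 (*Casp1*). Caspase-1 cleaves gasdermin D (*Gsdmd*), which forms pores in the plasma membrane, and processes pro-interleukin-18 (*Il18*) to its active form. In intestinal epithelium this axis is known for expelling infected enterocytes into the lumen.

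The 4 *Naip* genes are neighbouring paralogs on the minus strand of chromosome 13 (GRCm38): *Naip2* at chr13:100144063-100202092, *Naip5* at chr13:100211739-100246323, *Naip6* at chr13:100281121-100317674 and *Naip1* at chr13:100407764-100452869. *Nlrc4* lies at chr17:74425438-74459142, *Casp1* at chr9:5298517-5307265, *Gsdmd* at chr15:75862327-75867408 and *Il18* at chr9:50554827-50581840. The coding transcripts of the 4 paralogs were 90.9% to 96.9% identical over their aligned bases, with *Naip5* and *Naip6* the closest pair. Exact matches were counted at the 3′ end, where this chemistry reads: all 90-base windows in the last 600 bases of *Naip2*, *Naip5* and *Naip6* transcripts occurred in no other gene, whereas 155 of 1028 such windows of *Naip1* also occurred in *Naip2*, *Naip5*, *Naip3* or *Naip3-ps1*. The counts of *Naip1* are therefore uncertain where reads fell in shared windows, and those of the other 7 genes had no shared window. *Il18* overlaps *Bco2* and *Tex12* on the opposite strand, with 0 shared exon bases.

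*Naip2* and *Naip5* are shown by the longest stretch of likeness found among the upstream regions of the paralogs, because they are neighbouring paralogs whose levels are given separately here. RefSeq sequence (GRCm38.p6, 5′ to 3′ on the minus strand) of the 250 bases before each RefSeq start shared 75 of 80 aligned bases, and the 5 bases that differ are in capitals. RefSeq starts are not those of the GENCODE gene bounds given above: the *Naip5* stretch lies upstream of those bounds, and the RefSeq start region of *Naip6* lies inside its bounds. The stretch of *Naip2* is chr13:100202128-100202207 and that of *Naip5* is chr13:100247349-100247428.
Naip2: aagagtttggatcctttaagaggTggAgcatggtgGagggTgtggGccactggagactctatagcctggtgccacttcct
Naip5: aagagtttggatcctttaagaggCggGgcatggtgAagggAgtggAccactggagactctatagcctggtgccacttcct
The other 5 pairs of *Naip* upstream regions aligned over 9 to 22 bases only. The match is a description of the sequence and says nothing of its use in these cells.

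The barcodes called as cells held 60522766 to 155522445 UMIs (unique molecular identifiers, counts of captured RNA molecules) per library, and 3106 to 4778 barcodes per library passed the filters. Cells were clustered with the 8 genes and 33 other pathway genes kept out of the genes that define the clusters, and clusters were named from fixed markers. Levels are CPM, the UMIs of a gene or marker set per 1000000 UMIs of the class. Enterocyte-like cells had 71020 to 102400 CPM of their 10 markers, against at most 29670 in another named class. Unnamed clusters overlapped them: cluster 1 had 29750 to 79800 CPM of these markers and cluster 3 had 22910 to 78370. Unnamed clusters held 29.4% to 34.3% of the epithelial cells by library. The labels of the fractions went against the markers: stem-like cells were 0.981% to 2.55% of epithelial cells in the crypt-labelled libraries and 2.39% to 9.72% in the villus-labelled ones, so that the 2 kinds of library are called by their labels and not compared. The villus-labelled HFD VSG library stood apart, with a median of 30551 UMIs per passing cell against 8721 to 16487 in the other 5 libraries, and it is the only villus-labelled library of its group. Genes of damaged or nuclear droplets (*Gm42418*, *Gm26917*, *Lars2* and *AY036118*) made up 10140 CPM in its enterocyte-like cells and 14590 in those of the crypt-labelled HFD VSG library, against 41080 to 70850 in the 4 sham libraries. Called barcodes shared between any 2 libraries numbered 17 to 43.

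All 8 genes were detected in enterocyte-like cells of all 6 libraries, and each was higher there than in stem-like cells in 6 of 6 libraries. Levels are given as CPM, which allows comparison of a gene between classes and libraries but not of one gene with another. The size of the difference between enterocyte-like and stem-like cells varied by gene. It was largest for *Gsdmd*, the pore former, with a median log2 ratio of 3.95 over the libraries (3.46 to 4.93), and for *Il18*, the cytokine, with 3.90 (2.71 to 4.78). *Naip5* followed with 2.45 (1.97 to 2.55). *Naip2* (median 1.24), *Naip6* (1.05), *Nlrc4* (0.64), *Casp1* (0.53) and *Naip1* (0.28) differed less. The interval of counting error excluded 0 in 6 of 6 libraries for *Gsdmd*, *Il18*, *Naip5* and *Naip6*, in 5 for *Naip2*, *Nlrc4* and *Casp1*, and in 2 for *Naip1*. The pore former and the cytokine thus showed the widest separation of the 2 classes, and the needle receptor gene the narrowest.

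**Figure D1:**
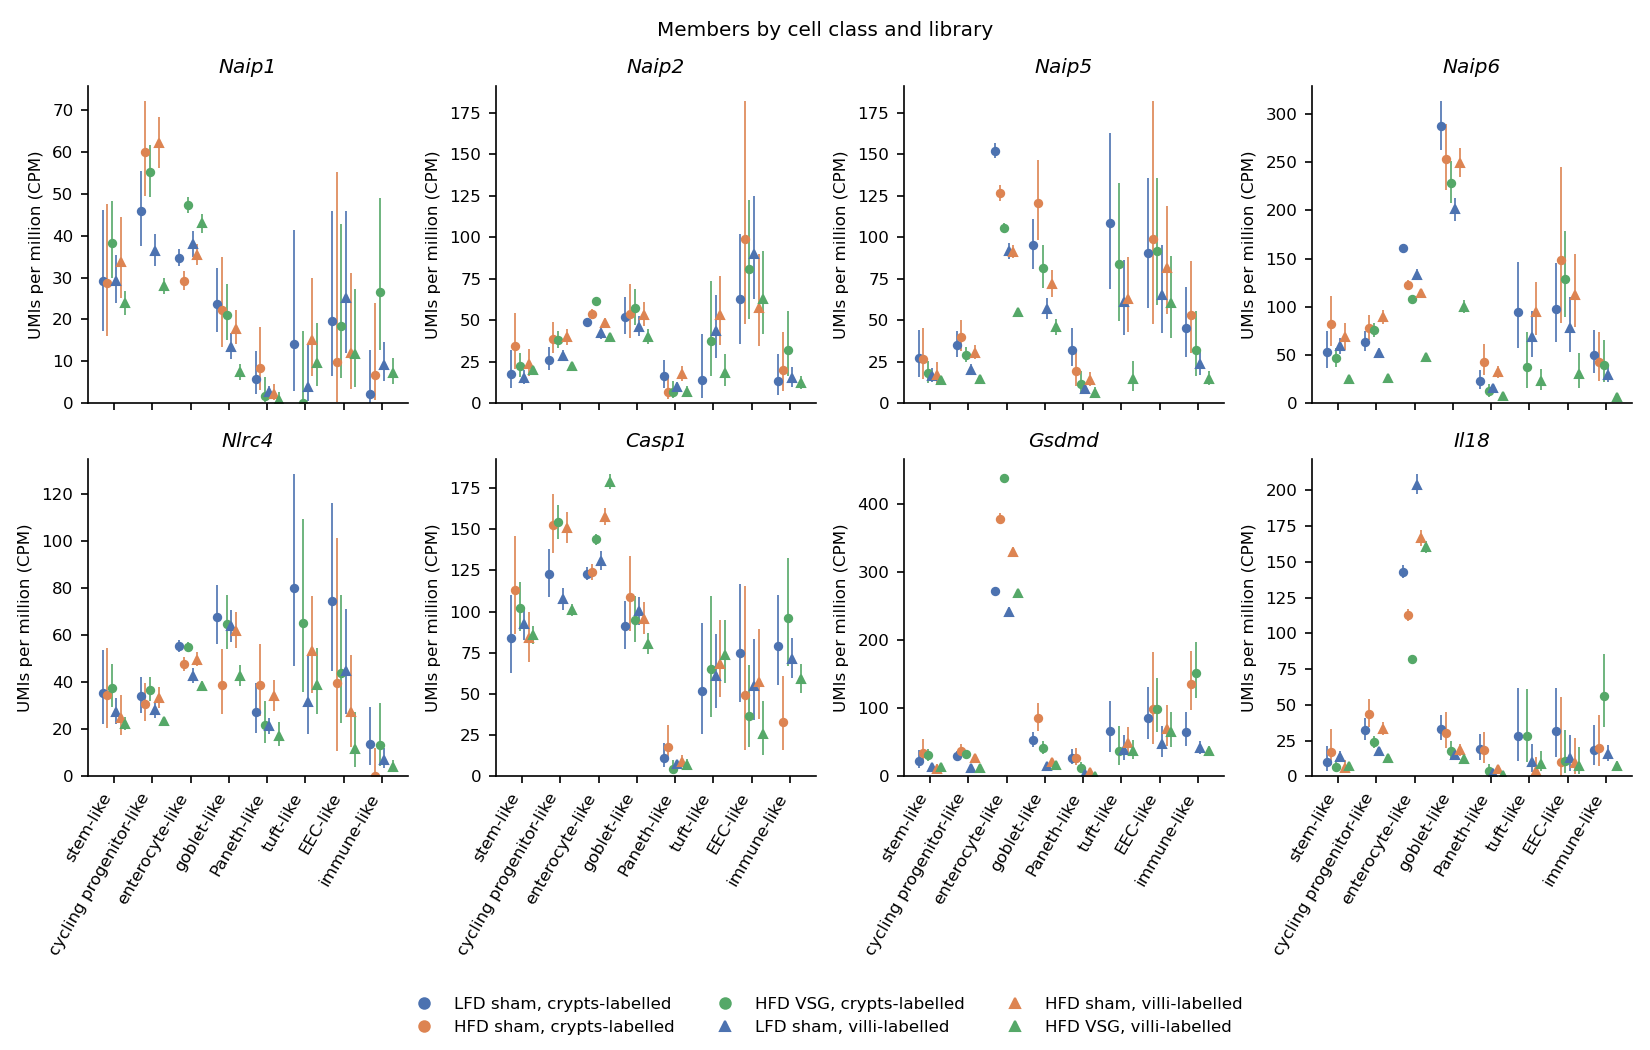
Level of each gene (y axis, CPM of the class, linear from 0) in 8 marker-named cell classes (x axis) of 6 libraries; points are libraries with at least 20 cells in the class and bars are exact Poisson 95% intervals, which cover counting error only. *Gsdmd* and *Il18* are high in enterocyte-like cells, with *Gsdmd* between 241 and 438 and *Il18* between 81.9 and 204, while *Naip6* is highest in goblet-like cells and *Casp1* is also high in cycling progenitor-like cells.

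*Gsdmd* stood at 272 CPM in the LFD sham, 379 in the HFD sham and 438 in the HFD VSG crypt-labelled libraries in enterocyte-like cells, and at 241, 329 and 269 in the villus-labelled ones. In stem-like cells it ranged from 10.8 to 34.5 CPM and in cycling progenitor-like cells from 11.8 to 37.7. No stem-like or progenitor-like value reached the lowest enterocyte-like value. Goblet-like (15.0 to 85.6 CPM), EEC-like (47.5 to 99.2, EEC being enteroendocrine cells) and immune-like cells (37.7 to 152) also lay below all enterocyte-like values.

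*Il18* stood at 143, 113 and 81.9 CPM in the enterocyte-like cells of LFD sham, HFD sham and HFD VSG crypt-labelled libraries, and at 204, 167 and 160 in the villus-labelled ones. Its order was the same under both labels, with LFD sham highest and HFD VSG lowest, although the last 2 villus-labelled values differed by a log2 ratio of -0.06 (95% interval -0.12 to 0.0037). The other named epithelial classes had 43.5 CPM or less. Immune-like cells had 7.15 to 55.9 CPM. The receptor chain genes *Il18r1* and *Il18rap*, whose products bind interleukin-18, had 23 and 19 UMIs in all immune-like cells of the 5 libraries with at least 20 such cells, and 14 and 2 UMIs in all enterocyte-like cells. *Il18bp*, the secreted inhibitor of interleukin-18, had 1.496 to 6.37 CPM in enterocyte-like cells.

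The 4 receptor genes did not share 1 distribution over the classes. Summed, they stood at 186 to 396 CPM in enterocyte-like and 193 to 458 CPM in goblet-like cells, and goblet-like cells had the higher sum in 6 of 6 libraries (median log2 ratio of enterocyte-like to goblet-like -0.24), with an interval that excluded 0 in 4 of 6. *Naip6* made up 51.9% to 63.6% of this sum in goblet-like cells and 25.9% to 43.6% in enterocyte-like cells. Such shares are of UMIs and are compared between classes, not read as amounts of one gene beside another. They are uncertain where reads of *Naip1* fell in windows shared with other genes. *Naip6* alone was at 287, 253 and 229 CPM in goblet-like cells of LFD sham, HFD sham and HFD VSG crypt-labelled libraries, and at 201, 250 and 100 in the villus-labelled ones. Each value was above that of enterocyte-like cells of the same library, with a median log2 ratio of -1.05 (-1.13 to -0.60 as enterocyte-like to goblet-like), and the interval excluded 0 in 6 of 6.

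*Naip5* went the other way, higher in enterocyte-like than in goblet-like cells in 6 of 6 libraries (median log2 ratio 0.36) with an interval above 0 in 5. It made up 29.6% to 38.4% of the receptor sum in enterocyte-like cells and 13.7% to 20.5% in cycling progenitor-like cells. *Naip1*, the needle receptor gene, made up 26.5% to 30.6% of the sum in cycling progenitor-like cells and 3.80% to 5.39% in goblet-like cells. *Naip1* was the only 1 of the 4 with a higher level in cycling progenitor-like cells (27.9 to 62.0 CPM) than in enterocyte-like cells (29.2 to 47.3 CPM) in several libraries, namely 4 of 6. *Naip2*, the rod receptor gene, did not differ between enterocyte-like and goblet-like cells beyond counting error in any library (log2 ratios -0.15 to 0.10), and was higher in EEC-like cells in 6 of 6, with an interval excluding 0 in 2.

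**Figure D2:**
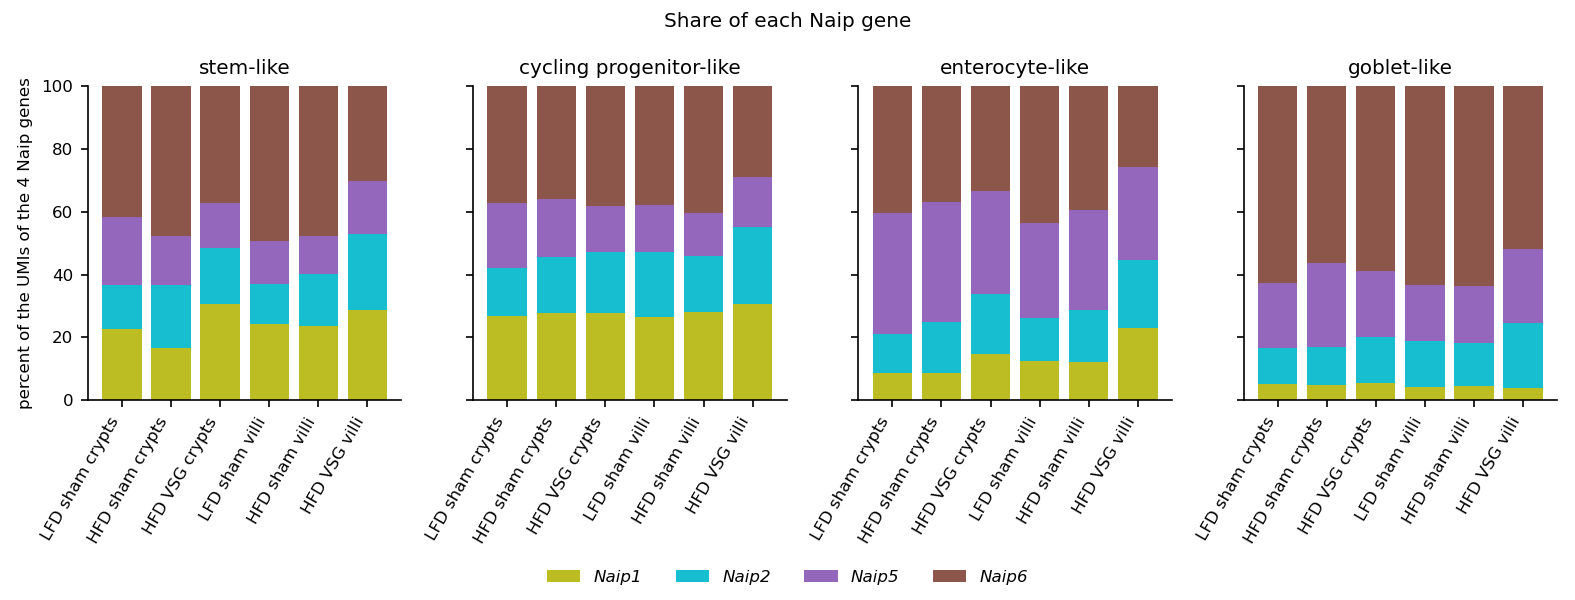
Share of each *Naip* gene in the UMIs of the 4 (y axis, percent) for 4 cell classes, with 1 bar per library. *Naip6* takes 51.9% to 63.6% in goblet-like cells, and *Naip5* takes a larger share in enterocyte-like cells (29.6% to 38.4%) than in cycling progenitor-like cells (13.7% to 20.5%).

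*Nlrc4* encodes the adaptor on which all 4 receptors converge. In enterocyte-like cells it stood at 55.3, 47.7 and 55.2 CPM in LFD sham, HFD sham and HFD VSG crypt-labelled libraries and at 42.8, 49.7 and 38.6 in the villus-labelled ones. Goblet-like cells had 38.7 to 67.9 CPM, and tuft-like cells 31.4 to 80.3. The enterocyte-like level was higher than the goblet-like one in 1 of 6 libraries and higher than the tuft-like one in 1 of 5, with no interval above 0, and it was below the goblet-like one beyond counting error in 3. In immune-like cells *Nlrc4* was at 0 to 13.6 CPM, lower than in enterocyte-like cells in 5 of 5 libraries (median log2 ratio of enterocyte-like to immune-like 2.27).

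*Casp1*, the protease, stood at 123, 124 and 144 CPM in enterocyte-like cells of LFD sham, HFD sham and HFD VSG crypt-labelled libraries and at 131, 158 and 179 in the villus-labelled ones. Cycling progenitor-like cells had 101 to 154 CPM, and the 2 classes overlapped: the enterocyte-like level was the higher in 4 of 6 libraries, with an interval above 0 in 2 and below 0 in 1. Paneth-like cells, the antimicrobial secretory cells of the crypt base, had 4.33 to 18.1 CPM. Defensins and other Paneth markers made up 559500 to 628600 CPM there, which lowers the CPM of every other gene in that class, and all 8 genes were lower in Paneth-like than in enterocyte-like cells in 6 of 6 libraries. *Casp1* was at 33.1 to 95.9 CPM in immune-like cells, and caspase-1 is known to be made by lymphocytes and myeloid cells.

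Free RNA from broken cells enters droplets, so the levels were set beside the RNA of droplets with fewer than 100 UMIs. The enterocyte-like level of each of the 8 genes exceeded that of these droplets in 6 of 6 libraries, by 1.08 times (*Il18*, lowest library) to 2.68 times (*Il18*, highest library). In immune-like cells the level was below that of free RNA in all 5 libraries with at least 20 such cells, at most 0.972 times it for the 4 *Naip* genes, 0.422 for *Nlrc4*, 0.490 for *Gsdmd* and 0.740 for *Il18*. *Casp1* was the exception, at 0.551 to 1.26 times. The enterocyte markers, which immune cells should lack, were in immune-like cells at 0.149 to 0.378 times their level in free RNA by library. In stem-like cells these markers were at 3363 to 10480 CPM, against 26420 to 78540 CPM in free RNA. The ratio to free RNA in stem-like cells was 0.0787 to 0.127 for *Gsdmd* and 0.0816 to 0.285 for *Il18*, with a median of 0.115, and the part of free RNA in these levels was not tested. *Casp1* (0.835 to 1.89), *Nlrc4* (0.773 to 1.19) and *Naip1* (0.924 to 1.44) had higher ratios there.

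Shares of cells with at least 1 UMI depend on depth, so cells were thinned to 1500 UMIs. *Gsdmd* was then seen in 29.7% to 48.8% of enterocyte-like cells (84.8% to 98.8% without thinning) and in 5.70% to 18.6% of immune-like cells (13.5% to 43.0%). *Naip6* was seen in 11.4% to 45.03% of goblet-like cells, in 7.06% to 24.0% of enterocyte-like cells and in 0.911% to 8.07% of immune-like cells. Without the villus-labelled HFD VSG library the lowest shares were 29.3% in goblet-like and 15.3% in enterocyte-like cells. *Casp1* was seen in 10.0% to 21.4% of stem-like cells and 12.9% to 20.8% of enterocyte-like cells, so these ranges overlapped. *Il18* was seen in 11.5% to 19.6% of enterocyte-like and 1.07% to 2.5% of stem-like cells. Median depth before thinning was 12758 to 34643 UMIs in enterocyte-like, 11689 to 29399 in stem-like and 3133 to 5887 in immune-like cells of the 5 libraries with enough of the latter.

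Among enterocyte-like cells, 5 clusters could be set apart by genes other than the 8. Cluster 0 was led by lower villus genes such as *Reg3b* and *Gsta1*, cluster 7 by the villus-tip genes *Ada*, *Nt5e* and *Clca4a*, cluster 5 by *Plb1*, *Nos2* and MHC class II genes, cluster 2 by *Apoc2* and *Cyp3a11* and cluster 14 by interferon-induced genes such as *Ifit1* and *Rsad2*. Lower villus genes summed to 28350 CPM in cluster 0 and 28070 in cluster 5, so they do not set cluster 0 apart from cluster 5. From cluster 0 to the villus-tip cluster 7, receptor and adaptor RNA was higher while protease and cytokine RNA was lower. *Naip1* was higher in cluster 7 by a median log2 ratio of 1.62 (0.86 to 1.99) and *Naip5* by 1.16 (1.04 to 1.54), in 6 of 6 libraries each. *Naip6* was higher by 0.72, *Nlrc4* by 0.65 and *Naip2* by 0.50, also in 6 of 6. *Il18* was lower in cluster 7 in 6 of 6 libraries, with a median log2 ratio of -3.09 (-3.53 to -2.97), and *Casp1* with -1.82 (-2.35 to -1.64). *Gsdmd* was higher by 0.33 (0.16 to 1.40).

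The levels behind these ratios did not overlap for *Il18* and *Casp1*. *Il18* was at 202, 165 and 130 CPM in cluster 0 of LFD sham, HFD sham and HFD VSG crypt-labelled libraries and at 277, 195 and 190 in the villus-labelled ones, against 24.6, 18.8 and 14.4 and 35.3, 16.9 and 24.1 in cluster 7. *Casp1* was at 146 to 193 CPM in cluster 0 and at 31.2 to 57.8 CPM in cluster 7. Cluster 7 held 347 to 429 cells in the crypt-labelled libraries and 26, 70 and 168 in the villus-labelled HFD VSG, HFD sham and LFD sham libraries. In cluster 7 the summed genes of damaged or nuclear droplets made up 100700 CPM, against 27450 in cluster 0, and its median depth was 0.534 of its library's against 1.31; their part in these differences was not tested.

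**Figure D3:**
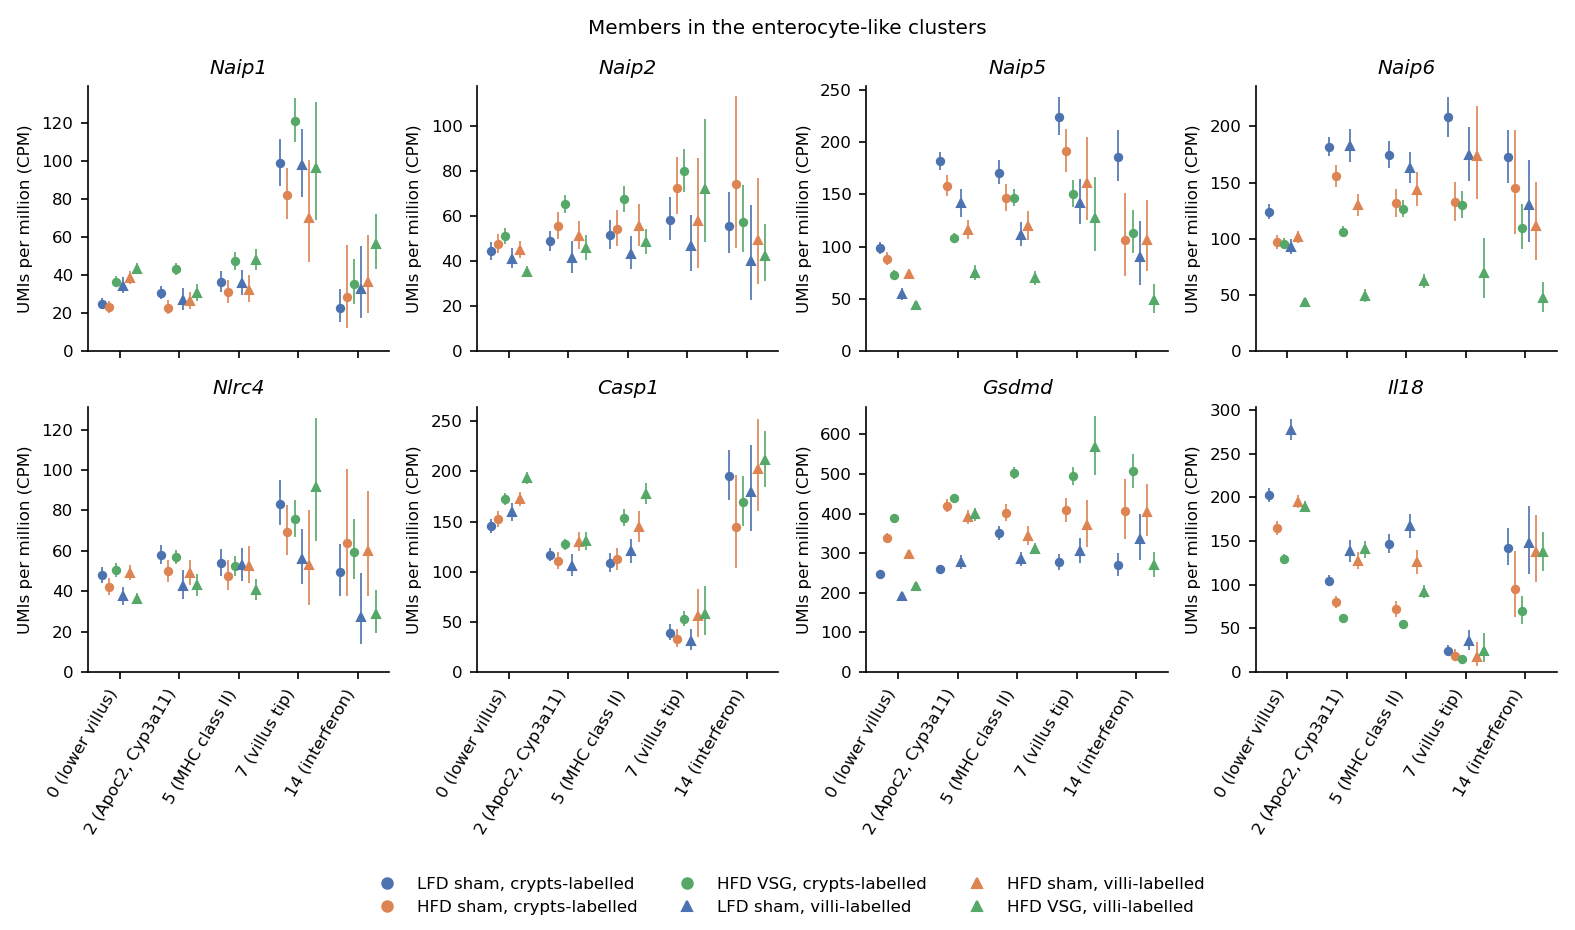
Level of each gene (y axis, CPM of the cluster) in the 5 enterocyte-like clusters (x axis) of the 6 libraries, with exact Poisson 95% intervals. *Il18* and *Casp1* fall to their lowest levels in the villus-tip cluster 7, where *Naip1*, *Naip2*, *Naip5*, *Naip6* and *Nlrc4* reach their highest median levels among the clusters.

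The interferon cluster 14 held 23 to 81 cells per library. *Casp1* was higher there than in cluster 0 in 4 of 6 libraries, with an interval above 0 in 1, and *Il18* was lower in 6 of 6 (median log2 ratio -0.65). *Naip5* was higher in 6 of 6 (0.58). The MHC class II cluster 5 had higher *Naip5* (0.77) and *Naip6* (0.50) and lower *Il18* (-0.89) and *Casp1* (-0.33) than cluster 0 in 6 of 6 libraries, each with an interval excluding 0 in 6. An unnamed cluster 3 was led by genes of damaged or nuclear droplets. *Naip6* stood at 51.9 to 319 CPM there, and at 154 to 319 without the villus-labelled HFD VSG library. T cell markers were at 4281 CPM in cluster 3 of that library and at 1.52 to 1467 CPM in cluster 3 of the others. *Naip6* was higher in cluster 3 than in enterocyte-like cells in 6 of 6 libraries (median log2 ratio 0.80), and *Naip5* likewise (0.61). The genes of damaged or nuclear droplets made up 39140 to 320700 CPM in this cluster, and *Naip6* was itself among its 10 leading genes.

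An unnamed cluster 1, led by *Ms4a18* and *Car4*, had more *Casp1* and less *Gsdmd* than enterocyte-like cells. *Casp1* was at 179 to 224 CPM there, higher than in enterocyte-like cells in 6 of 6 libraries (median log2 ratio 0.54). *Gsdmd* was at 50.1 to 244 CPM, lower than in enterocyte-like cells in 6 of 6 (-0.92), and *Naip5* was lower as well (-0.76). This range of *Gsdmd* lay above those of stem-like (10.8 to 34.5 CPM) and cycling progenitor-like cells (11.8 to 37.7 CPM). *Il18* was higher than in enterocyte-like cells in 4 of 6.

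Between LFD sham and HFD sham, the question was how the fat-rich diet altered the axis. In enterocyte-like cells all 8 genes passed the count minimum (a mean of 50 UMIs over the 3 libraries of a label), and none had a log2 ratio past 0.5 in either direction under either label, where 12.3% of 9615 genes passed it in the crypt-labelled and 13.6% of 9380 genes in the villus-labelled libraries. *Gsdmd* came closest, higher in HFD sham by 0.48 (95% interval 0.43 to 0.52) and 0.45 (0.39 to 0.50) under the 2 labels, and its ratio was positive in 5 of 5 enterocyte-like clusters under each. *Il18* was lower by -0.34 (-0.42 to -0.27) and -0.29 (-0.36 to -0.22), again in 5 of 5 clusters each. *Naip6* had -0.39 (-0.45 to -0.32) and -0.22 (-0.30 to -0.13). The intervals cover counting error only, and differences between mice or preparations cannot be told apart from diet.

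The other 5 genes had the following log2 ratios for diet in enterocyte-like cells. *Naip2* was positive under both labels, with 0.14 and 0.19. *Casp1* had 0.01 in the crypt-labelled and 0.27 in the villus-labelled libraries. *Naip5* (-0.26 and -0.01), *Naip1* (-0.25 and -0.10) and *Nlrc4* (-0.21 and 0.21) completed the set. These 3 genes were positive in 0, 1 and 1 of 5 clusters in the crypt-labelled libraries. In the villus-labelled ones they were positive in 4, 2 and 3. Cluster 7 made up 14.2% of enterocyte-like cells in the villus-labelled LFD sham library and 4.65% in HFD sham. The part of this share in the ratios was not tested. The genes of damaged or nuclear droplets, at 64140 and 53170 CPM (crypt-labelled LFD sham and HFD sham) and 70850 and 41080 (villus-labelled), were lower in HFD sham, and their part in these ratios was not tested. RNA of 9 myeloid and B cell marker genes was at 441 CPM in the enterocyte-like cells of the villus-labelled LFD sham library and 6.29 to 11.7 CPM in the other 5.

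Between HFD sham and HFD VSG, the question was what the operation altered on the fat-rich diet; this comparison shares the HFD sham libraries with the former. In the crypt-labelled libraries 1 of the 8 genes passed 0.5 in enterocyte-like cells, beside 8.92% of 9615 genes. It was *Naip1*, at 29.2 CPM in HFD sham and 47.3 CPM in HFD VSG, a log2 ratio of 0.69 (0.57 to 0.82), positive in 5 of 5 clusters. The LFD sham library stood between at 34.8 CPM. *Il18* was lower in HFD VSG by -0.46 (-0.53 to -0.39), negative in 5 of 5 clusters. *Casp1*, *Gsdmd*, *Nlrc4* and *Naip2* had 0.20 to 0.21, *Naip5* had -0.26 and *Naip6* -0.19, where the median of all genes was 0.11.

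In the villus-labelled libraries 2 of the 8 genes passed 0.5 in enterocyte-like cells, beside 34.8% of 9380 genes. *Naip6* was at 133 CPM in LFD sham, 114 in HFD sham and 48.1 in HFD VSG, a log2 ratio of HFD VSG to HFD sham of -1.25 (-1.34 to -1.16). *Naip5* was at 91.8, 91.3 and 55 CPM, a ratio of -0.73 (-0.82 to -0.64). Both were lower in 5 of 5 clusters. The villus-labelled HFD VSG library had the lowest *Naip5* and the lowest *Naip6* of all libraries in 8 of 8 named classes. Without that library the enterocyte-like range was 91.3 to 152 CPM for *Naip5* and 108 to 161 CPM for *Naip6*. With 34.8% of all genes past the same size, 2 of 8 was not above the background.

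The remaining genes of the villus-labelled comparison did not move together. *Nlrc4* had -0.37 (-0.48 to -0.25), *Gsdmd* -0.29 (-0.33 to -0.24) and *Naip2* -0.26 (-0.38 to -0.15). *Naip1* had 0.28 (0.15 to 0.40), *Casp1* 0.18 (0.12 to 0.24) and *Il18* -0.06. *Naip1* and *Casp1* were positive in 5 of 5 clusters, as they were in the crypt-labelled comparison, while *Gsdmd* and *Il18* split over the clusters, positive in 2 and negative in 3. The share of each cluster in the enterocyte-like cells also differed: cluster 0 made up 57.6% of them in HFD VSG and 53.8% in HFD sham, against 36.3% in LFD sham, and cluster 7 made up 2.74%, 4.65% and 14.2%.

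**Figure D4:**
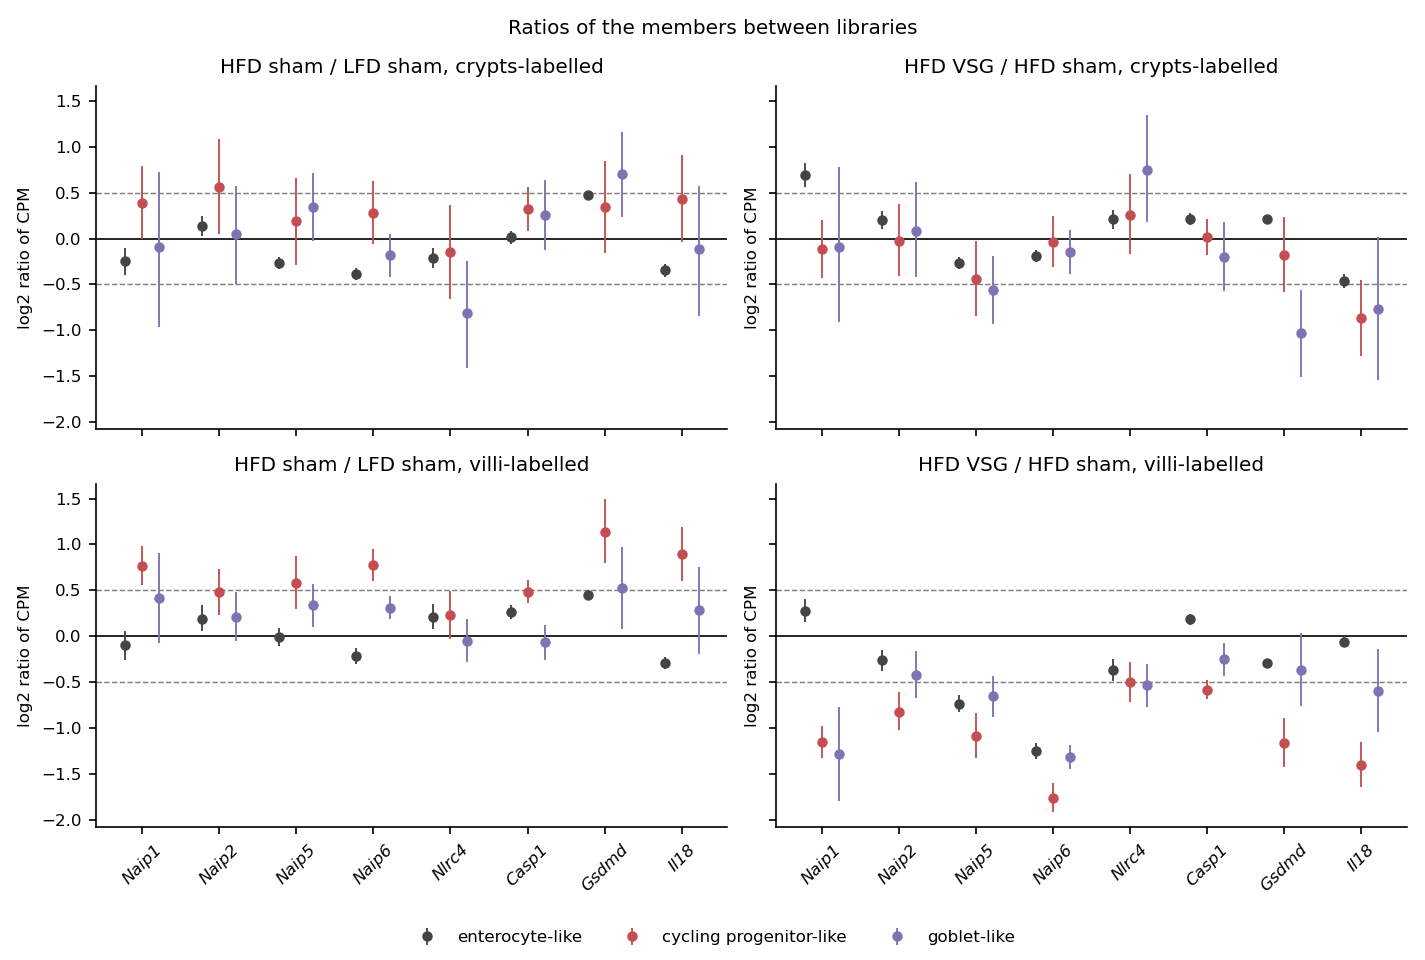
Log2 ratio of each gene (y axis) between HFD sham and LFD sham (left) and between HFD VSG and HFD sham (right) in the crypt-labelled (top) and villus-labelled (bottom) libraries, for 3 cell classes; bars are exact 95% intervals for counting error and dashed lines mark a size of 0.5. In the villus-labelled HFD VSG library all 8 genes lie below HFD sham in cycling progenitor-like cells, and in enterocyte-like cells *Naip6* (-1.25) and *Naip5* (-0.73) lie lowest.

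Within each label *Naip5*, *Naip6* and *Il18* had the same order over the 3 libraries as the content of nuclear or damage-related RNA, and *Casp1* had the reverse order. From high to low that order was LFD sham, HFD sham and HFD VSG, and how many of all genes have it was not counted. In enterocyte-like cells that content was 64140, 53170 and 14590 CPM in LFD sham, HFD sham and HFD VSG crypt-labelled libraries, where *Naip6* stood at 161, 123 and 108 CPM and *Naip5* at 152, 127 and 106 CPM. In the villus-labelled libraries it was 70850, 41080 and 10140 CPM beside *Naip6* at 133, 114 and 48.1 CPM and *Naip5* at 91.8, 91.3 and 55 CPM. *Il18* stood at 143, 113 and 81.9 CPM in the crypt-labelled and 204, 167 and 160 CPM in the villus-labelled libraries. *Casp1* stood at 123, 124 and 144 CPM and at 131, 158 and 179 CPM. Between the sham libraries *Naip5* (villus-labelled) and *Casp1* (crypt-labelled) hardly differed, with overlapping intervals. Single clusters did not always keep the order of the class. In the villus-labelled libraries *Naip5* was higher in HFD sham than in LFD sham in 4 of 5 clusters, and *Naip6* in 1. *Il18* was higher in HFD VSG than in HFD sham in 2 of 5 villus-labelled clusters, and *Naip5* in 1 of 5 crypt-labelled ones. *Casp1* was lower in HFD sham than in LFD sham in 3 of 5 crypt-labelled clusters. The other 4 genes followed neither order under both labels. The part of this content in the ratios of these genes was not tested, and with 1 library per group it cannot be told apart from the operation.

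**Figure D5:**
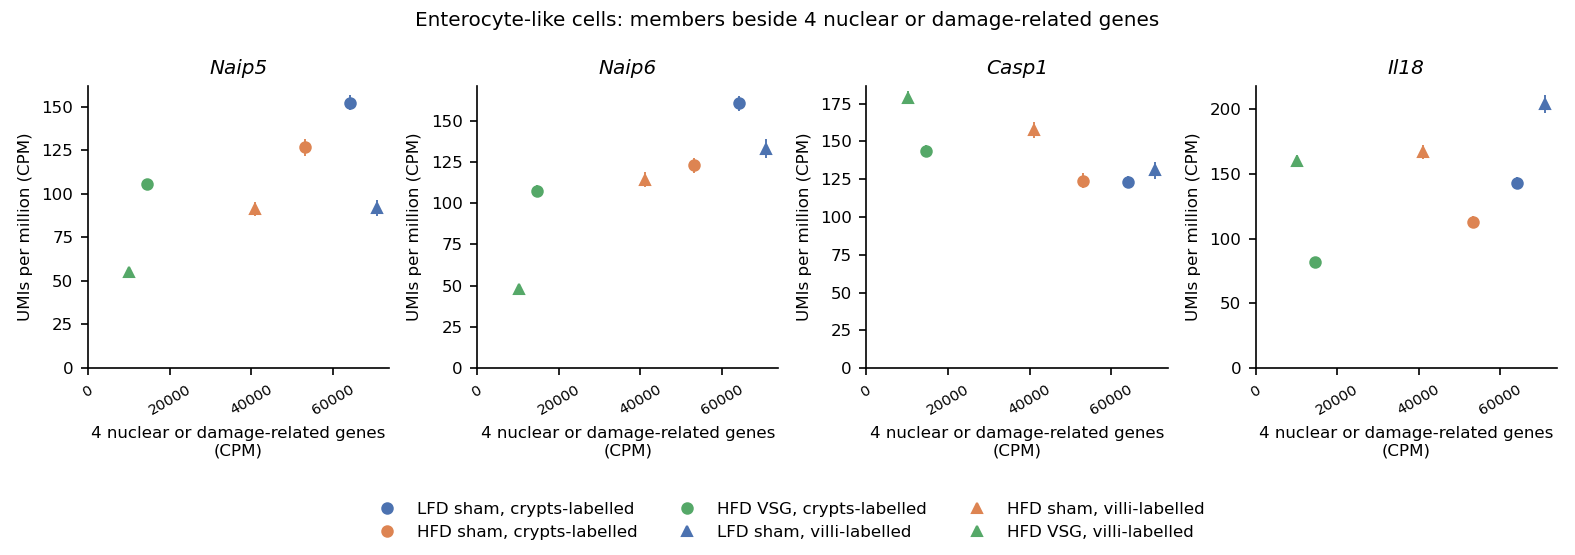
Level of *Naip5*, *Naip6*, *Casp1* and *Il18* in enterocyte-like cells (y axes, CPM, with exact Poisson 95% intervals) beside the summed level of *Gm42418*, *Gm26917*, *Lars2* and *AY036118* (x axes, CPM) in the 6 libraries. The 2 HFD VSG libraries have the lowest x values, 10140 and 14590 CPM, and the lowest *Naip6* values, 48.1 and 108.

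Outside enterocytes the members also differed in cycling progenitor-like cells of the villus-labelled libraries. The planned ratios were those of enterocyte-like cells, and this class and goblet-like cells were taken outside that plan. The class was named by markers of dividing cells, but *Dmbt1*, an early progenitor marker, was among the leading genes of its cluster 6. From LFD sham to HFD sham 5 of 8 genes were higher by more than 0.5 (median of the 8 log2 ratios 0.68). Of 9901 genes 7.98% were higher by that size, and 18.4% passed it in either direction. Of the 2 clusters of this class, cluster 11 alone had 2 of 7 genes past 0.5 (median 0.37) and cluster 6 alone 5 of 8 (0.63). *Gsdmd* was at 11.95 and 26.3 CPM in LFD sham and HFD sham (log2 ratio 1.14, 0.79 to 1.49) and *Il18* at 17.8 and 33.03 CPM (0.89, 0.60 to 1.19). Free RNA of the villus-labelled LFD sham, HFD sham and HFD VSG libraries held *Gsdmd* at 112.7, 137.2 and 107.8 CPM. It held *Il18* at 90.49, 74.45 and 59.72 CPM. These values exceed the levels of both genes in this class, and the part of free RNA in the ratios was not tested. *Naip6* (0.78), *Naip1* (0.77) and *Naip5* (0.58) also passed, and *Casp1* (0.49), *Naip2* (0.48) and *Nlrc4* (0.23) did not. From HFD sham to HFD VSG 8 of 8 genes were lower by more than 0.5 (median -1.12), beside 33.5% of 9901 genes and a median of -0.25 over all of them. In either direction 40.8% of the 9901 genes passed it. Cluster 11 alone had 6 of 7 members lower (median -0.65) and cluster 6 alone 7 of 8 (-1.11).

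*Naip6* led that decrease, from 89.6 CPM in HFD sham to 26.5 in HFD VSG (-1.75, -1.91 to -1.60), followed by *Il18* (-1.40), *Gsdmd* (-1.16), *Naip1* (-1.15) and *Naip5* (-1.08). *Nlrc4* lay at the threshold with -0.50 (-0.72 to -0.28). HFD sham was thus the highest of the 3 villus-labelled libraries for each of the 8 genes in this class. The summed enterocyte markers in the same cells were 10210, 14790 and 9139 CPM in LFD sham, HFD sham and HFD VSG, the same order for HFD sham. In these libraries the genes of damaged or nuclear droplets were at 25800, 20960 and 6700 CPM. The markers of dividing cells that named the class were at 2532, 1482 and 1532 CPM. Early progenitor markers were at 7412, 5183 and 5391 CPM and stem markers at 1362, 878 and 829 CPM. The free RNA fractions that the study states were highest in the HFD sham libraries under both labels. The part of all these in the ratios was not tested. In the crypt-labelled libraries the log2 ratios of the same class ranged from -0.14 (*Nlrc4*) to 0.57 (*Naip2*) for diet and from -0.87 (*Il18*) to 0.25 (*Nlrc4*) for the operation.

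In goblet-like cells of the villus-labelled libraries 5 of 8 genes were lower by more than 0.5 from HFD sham to HFD VSG. Of 8174 genes 29.1% were lower by that size, and 34.2% passed it in either direction. In these cells the genes of damaged or nuclear droplets went from 31610 to 8843 CPM and the enterocyte markers from 6492 to 2953 CPM between the same libraries, and their part in the ratios was not tested. *Naip6* was at 201, 250 and 100 CPM in LFD sham, HFD sham and HFD VSG (HFD VSG to HFD sham -1.32, -1.45 to -1.18). *Naip1*, at 13.4, 17.8 and 7.34 CPM, had -1.28 (-1.80 to -0.77). *Naip5* (-0.65), *Il18* (-0.60) and *Nlrc4* (-0.53) were the others. *Naip6* was thus lower in HFD VSG than in HFD sham in enterocyte-like, goblet-like, cycling progenitor-like and stem-like (-1.43) cells of the villus-labelled libraries. In the crypt-labelled libraries its ratios in the same 4 classes were -0.19, -0.15, -0.03 and -0.83. In stem-like cells of the villus-labelled libraries 2 of 7 members were lower in HFD VSG by more than 0.5, beside 33.2% of 8001 genes.

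The 33 other genes of inflammasome pathways were described in the same classes. Of 8 other sensors, *Nlrp6* (152 to 304 CPM in enterocyte-like cells), *Nlrp9b* (3.43 to 29.0) and *Nlrp1b* (2.05 to 7.24) passed a mean of 50 UMIs, and *Nlrp3*, *Nlrp1a*, *Nlrp10* and *Mefv* had at most 2 UMIs each in all enterocyte-like cells. *Aim2*, a sensor of cytosolic DNA, was found mainly in immune-like cells, at 36.4 to 77.1 CPM against 0.326 to 1.01 in enterocyte-like cells. *Nlrp9b*, a sensor known from enterocytes, was higher in the villus-tip cluster 7 than in cluster 0 in 6 of 6 libraries (median log2 ratio 3.62), as the *Naip* genes were, while *Nlrp6* was lower (-3.20).

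*Pycard*, which encodes ASC, the adaptor that strengthens caspase-1 recruitment, ran against the pore former. It was at 738 to 999 CPM in stem-like and 56.2 to 691 CPM in enterocyte-like cells, lower in enterocyte-like cells in 6 of 6 libraries (median log2 ratio -2.44). In enterocyte-like cells it stood at 56.2, 86.9 and 125 CPM in LFD sham, HFD sham and HFD VSG crypt-labelled libraries and at 168, 185 and 691 in the villus-labelled ones. Its ratio of HFD VSG to HFD sham was 0.53 (0.45 to 0.60) and 1.91 (1.86 to 1.95). In free RNA *Pycard* was at 115, 130 and 283 CPM in the crypt-labelled and 331, 319 and 1092 CPM in the villus-labelled libraries. These values were above the enterocyte-like level in 6 of 6 libraries and also highest in HFD VSG. The stem-like level also lay below free RNA in the villus-labelled HFD VSG library. A level below that of free RNA does not say how much of it is free RNA. That part was not tested in the enterocyte-like levels and ratios of *Pycard*, which are not read as expression in those cells. *Casp4*, which encodes caspase-11, a caspase that senses bacterial lipopolysaccharide and also cleaves gasdermin D, was higher in HFD VSG by 0.82 (0.69 to 0.96) and 0.87 (0.73 to 1.02). In free RNA *Casp4* was at 18 and 34.4 CPM in the crypt-labelled HFD sham and HFD VSG libraries. In the villus-labelled ones it was at 12.2 and 21.7 CPM, and the part of free RNA in these ratios was not tested. *Casp8*, which encodes an apoptotic caspase that inflammasomes can engage, stood at 69.8 to 113 CPM.

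Of 7 other genes for pore formation, *Gsdmc4* and *Gsdmc2* stood at 22.3 and 7.36 CPM in enterocyte-like cells of the villus-labelled HFD VSG library, where they had 761 of 838 and 251 of 302 of their enterocyte-like UMIs. Free RNA of that library held them at 59.9 and 25.8 CPM, above the enterocyte-like level. An unnamed cluster 17 of 138 cells was led by *Gsdmc4*, *Gsdmc2* and *Gsdmc3* among others. The part of free RNA in the enterocyte-like values was not tested, and these values are not read as expression in those cells. *Gsdmc4* and *Gsdmc2* reached 38.6 and 16.4 CPM in stem-like cells, also below these free RNA levels. *Gsdmc3* had 63 of its 76 enterocyte-like UMIs in the villus-labelled HFD VSG library. *Gsdme* (10.3 to 23.0 CPM) and *Ninj1*, which encodes a protein of membrane rupture (3.19 to 7.57 CPM, below free RNA in both HFD VSG libraries), were found in all libraries. *Il1b* and *Il1a*, the other cytokine genes of the pathway, had 1 UMI each in all enterocyte-like cells, so *Il18* was the only cytokine of the list with a level that could be compared. The flagellin receptor gene of the cell surface, *Tlr5*, had 13 UMIs.

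Among genes of upstream regulation, *Irf8*, a transcription factor known to drive *Naip* genes in macrophages, stayed at 56.0 to 68.1 CPM in enterocyte-like cells with log2 ratios of -0.08 to 0.19 over the 4 comparisons. *Il22ra1*, the receptor gene for interleukin-22, was lowest in the villus-labelled HFD VSG library with 3.11 CPM against 12.7 to 22.3 in the other 5. Over all 33 genes, 16 passed the count minimum in the crypt-labelled and 18 in the villus-labelled enterocyte-like cells. From LFD sham to HFD sham 1 was above and 4 below 0.5 in the former and 2 above and 4 below in the latter, where 12.3% and 13.6% of all genes passed 0.5 in either direction. From HFD sham to HFD VSG 4 were above and 0 below, and 5 above and 6 below, where 8.92% and 34.8% of all genes passed it. Those above include *Pycard* under both labels and *Gsdmc4* and *Gsdmc2* in the villus-labelled libraries. The values of these genes are not read as expression in enterocyte-like cells, as said above. The medians over the genes that passed the count minimum were -0.04 and -0.01 for diet and 0.06 and -0.16 for the operation.

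Genes whose levels were most like those of the members over 46 points of class and library were ranked among 6150 genes by Pearson's r of log2(CPM + 1), as a description, since points share libraries, depth and free RNA. *Gsdmd* was most like *Slc9a3r1* (0.96), and then *Gchfr*, *Uap1l1* and *Ezr* (0.93 each). Among the genes most like *Il18* were *Cndp2*, *Acsl5*, *Rfk* and *Dgat2* (0.91 each). *Casp1* was most like *Nfe2l2* (0.95), and then *Sdha*, *Atp5a1*, *Slc25a3* and *Bcap31* (0.94 each). The summed *Naip* genes were most like *Arcn1* and *Raph1* (0.94), and then *Dstn*, *Golga4* and *Sec31a* (0.92 to 0.91). *Nlrc4* had the lowest values, with *Tmem184a* (0.83), and then *Vcl*, *Cadps2* and *Tcf7l2* (0.80 to 0.78). Between members the highest values were 0.80 for *Naip5* with *Naip6*, 0.79 for *Gsdmd* with *Il18*, 0.78 for *Naip5* with *Gsdmd* and 0.78 for *Naip2* with *Naip5*, and the lowest was 0.09 for *Nlrc4* with *Gsdmd*.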

How the data were processed

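Jejunal cells of 6 pooled libraries were captured with 10x 3′ chemistry and, per the labels, the authors aligned reads with Cell Ranger 6.0.0 to mm10 and the deposited matrices, raw and filtered, hold UMI counts without normalization. From the filtered counts, barcodes with at least 750 genes and at most 20% mitochondrial UMIs were kept, barcodes most like simulated doublets were removed at an expected rate that grew with the number called (482 to 1154 per library), and cells were integrated and clustered with Seurat 5.3.0 and sctransform 0.4.2 (30 components, resolution 0.4, 2000 variable genes without members or pathway genes). UMIs were summed per class and library and given as CPM with exact Poisson 95% intervals. Ratios have exact intervals and were taken where the 3 libraries averaged 50 UMIs or more. A class with fewer than 20 cells in a library is not given, and a level of 0 is read against a floor of 3 UMIs. No test was made, because each group is 1 library per label. The 8 members, the 33 pathway genes and the markers were chosen with earlier results of these data known. Named genes are all members, pathway genes with at least 50 UMIs in enterocyte-like or immune-like cells of a library, and the 5 genes most like each target. Some genes that this rule names are not reported here. Pathway genes below that count were named after their values were seen. Intervals were checked on simulated counts of 8958 genes, where they held the true ratio of 97% of 200 changed genes in the villus-labelled diet comparison. The simulated counts had only the counting error that the intervals assume. This checks the calculation and cannot show how the intervals hold with differences between mice, preparations or free RNA. Annotation was GENCODE vM21 on GRCm38.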

Additional observations from a re-analysis of the deposited data

How the results depend on the processing

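No paired analysis was possible because each group gave 1 library per label and no test was made. The 3 log2 ratios past 0.5 in enterocyte-like cells (*Naip1* in the crypt-labelled, *Naip5* and *Naip6* in the villus-labelled comparison of HFD VSG with HFD sham) kept their direction and stayed past 0.5 under each alternative run that kept this threshold and could move a ratio (another count minimum cannot). Some of these changed the cells summed: at resolution 0.8 the clusters led by *Reg3b*, by MHC class II genes and by interferon-induced genes were unnamed and the one led by *Ly6m* and *Ada* was named goblet-like, and the sums over all epithelial cells and all called barcodes were not restricted to enterocyte-like cells. The counts of members past 0.5 moved as follows, and the cause was not tested. For diet, 0 became 2 under both labels with at most 10% mitochondrial UMIs. It became 1 in the crypt-labelled libraries with clusters at resolution 0.8 or with either free RNA subtraction, and 1 in the villus-labelled ones with the free RNA fractions the study states or with sums over all epithelial cells or all called barcodes. For the operation in the crypt-labelled libraries, 1 became 2 with at most 10% mitochondrial UMIs, at least 1500 genes, either free RNA subtraction, thinned cells or median-of-ratios scaling, 3 at resolution 0.8, and 0 at a threshold of 1. In the villus-labelled ones, 2 became 1 at a threshold of 1, 6 over all epithelial cells and 5 over all called barcodes. Over all epithelial cells of these libraries 23.9% of all genes passed 0.5 for diet and 46.7% for the operation. Averaging over cells in place of summing gave median enterocyte-like CPM of 43.8 (*Naip1*), 118 (*Naip5*), 141 (*Naip6*), 123 (*Casp1*), 315 (*Gsdmd*) and 131 (*Il18*). In cycling progenitor-like cells, the alternatives were chosen after seeing the data. The 5 members above 0.5 for diet became 7 of 8 with median-of-ratios scaling and 2 of 7 in cluster 11 alone. With free RNA subtracted by the immune-like fractions they became 6 of 7. The 8 below -0.5 for the operation became 7 of 7 with this subtraction and 6 or 7 with the other alternatives. In the villus-labelled HFD sham library the fraction came from 185 UMIs of enterocyte markers in 7 immune-like cells. These are fewer cells than the minimum for a class. The villus-labelled runs with this subtraction therefore cannot decide what free RNA contributes, in enterocyte-like cells too. A run with the fractions the study states is not given for cycling progenitor-like cells. Depth limits the classes with few cells, such as stem-like cells of the crypt-labelled sham libraries (40 and 42 cells).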
